A study of Homo sapiens with 12 samples.

Results

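The 7 genes described here carry out the step of autophagy in which a ubiquitin-like protein is fixed to the growing membrane and cargo is tied to it: ATG5, ATG7, ATG16L1, MAP1LC3B, GABARAPL1, SQSTM1 and NBR1. They were examined for peaks of N6-methyladenosine (m6A, methylated adenosine in RNA) in H460 cells, a wild-type, established line of human large cell lung carcinoma. Peak intervals were counted as members if 1 bp or more of them lay in the hg19 span of a gene, strand included. These were 35 of the 53502 intervals in the 6 peak lists examined, or 0.0654%, and joining overlapping intervals of different lists gave 12 regions. Of the 7 genes, 5 had an interval in at least 1 list, while ATG16L1 and GABARAPL1 had none.

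The assay was MeRIP-seq: an antibody enriches RNA fragments that carry m6A, and the enriched (IP) library is sequenced together with an input library that skipped the antibody. The 12 samples comprise 3 inputs and 3 IPs from cells left untreated, plus 3 inputs and 3 IPs from cells kept in 100 nM rapamycin for 24 h. Rapamycin, an inhibitor of mTORC1, served to switch on autophagy, and ribosomal RNA was removed before library construction. The labels do not say whether the replicates were separate cultures.

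The letters A to F stand for the 6 lists. In the GEO record A, C and E belong to inputs of untreated cells (replicates 1 to 3), while B, D and F belong to the IPs of those replicates. The names under which the lists were deposited carry con for A, B and C and rapamycin for D, E and F, so record and names disagree. No list was therefore assigned to an arm or a library type, the effect of rapamycin was not tested, and each value is a single value per list. Lists A, B and C held 12040, 14908 and 12288 intervals, and lists D, E and F held 4837, 4530 and 4899. Read depth is not known for any list. A missing interval therefore means that none was listed, not that the mark was absent. A peak list holds no transcript level, so markers of the cell line could not be checked and a peak cannot be set against the amount of its RNA.

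Autophagy encloses cytoplasm in a double membrane that later fuses with the lysosome. ATG7 is the E1-like enzyme that activates the ubiquitin-like proteins ATG12 and the LC3 and GABARAP family. ATG5 is joined to ATG12 and, bound to ATG16L1, directs the attachment of LC3 proteins to phosphatidylethanolamine in the membrane. SQSTM1 (p62) and NBR1 are receptors that bind both ubiquitinated cargo and LC3 proteins and are degraded with them. In mRNA in general, m6A is laid down mostly within a short consensus around GGAC and is frequent near stop codons and in long internal exons. Antibodies to m6A also bind m6Am, a related nucleotide next to the cap at the RNA 5′ end, and the lists do not separate the marks.

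In MAP1LC3B, NBR1 and ATG7 an interval began at or within 100 bases of the first base of the gene span. Their start-site sequences are shown for that reason, as the 250 bases before a RefSeq start site on the GRCh38.p14 build, 5′ to 3′ on the plus strand, with each GGAC in capitals. They are DNA before a start site of that build and are not offered as the sequence of the intervals. The hg19 positions of the intervals were not carried over to that build. Whether a window takes in part of an interval was therefore not analysed. MAP1LC3B is 12439 bases long in GRCh38 and 12580 in its hg19 span. For NBR1 the lengths are 41280 and 41211, and for ATG7 303957 and 285130. The first base of each gene may therefore not be the same in both. The MAP1LC3B window is chr16:87392086-87392335, the NBR1 window (the first of 2 start sites) is chr17:43170159-43170408 and the ATG7 window is chr3:11272147-11272396.

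MAP1LC3B: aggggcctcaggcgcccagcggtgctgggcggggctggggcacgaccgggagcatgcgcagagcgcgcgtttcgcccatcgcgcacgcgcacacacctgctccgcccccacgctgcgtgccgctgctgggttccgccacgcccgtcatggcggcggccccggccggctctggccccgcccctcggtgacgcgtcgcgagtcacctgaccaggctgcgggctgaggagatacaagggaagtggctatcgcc
NBR1: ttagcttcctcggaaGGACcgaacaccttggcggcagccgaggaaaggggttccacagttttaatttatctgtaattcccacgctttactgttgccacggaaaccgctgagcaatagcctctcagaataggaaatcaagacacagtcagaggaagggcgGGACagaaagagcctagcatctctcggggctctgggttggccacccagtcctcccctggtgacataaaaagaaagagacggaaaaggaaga
ATG7: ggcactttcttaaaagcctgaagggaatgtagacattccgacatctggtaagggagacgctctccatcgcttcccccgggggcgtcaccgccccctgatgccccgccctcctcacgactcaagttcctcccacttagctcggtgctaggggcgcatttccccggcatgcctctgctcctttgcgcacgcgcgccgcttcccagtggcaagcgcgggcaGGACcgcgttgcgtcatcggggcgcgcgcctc

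GGAC was searched over the whole 300-base window, which takes in 50 bases after the start site. It occurred 0 times in the MAP1LC3B window on either strand. On the sense strand it occurred 2 times in the first NBR1 window and 1 time in the ATG7 window. On the other strand it occurred 1 time in the first NBR1 window and 0 times in the ATG7 window. Of all 35116 such windows, 66.3% held it on the sense strand and 66.1% on the other strand. A match is a description of these letters and does not mark a methylated site. The upstream 250 bases were 74.8% G or C in MAP1LC3B, 51.6% in the first NBR1 window and 65.2% in ATG7, beside a median of 58.0% over all windows.

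The 7 genes fell into a few with a recurrent interval and several with almost none. NBR1 had 21 of the 35 intervals: list A had 6, B 3, C 5, D 2, E 3 and F 2. MAP1LC3B had exactly 1 interval in each of the 6 lists. ATG5 had 1 interval in each of A, B, C and E and none in D or F. ATG7 had 2 intervals in B and 1 in C, and SQSTM1 had 1 interval, in A. NBR1 and MAP1LC3B were thus the genes with an interval in every list, and they held all intervals of lists D and F.

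**Figure D1:**
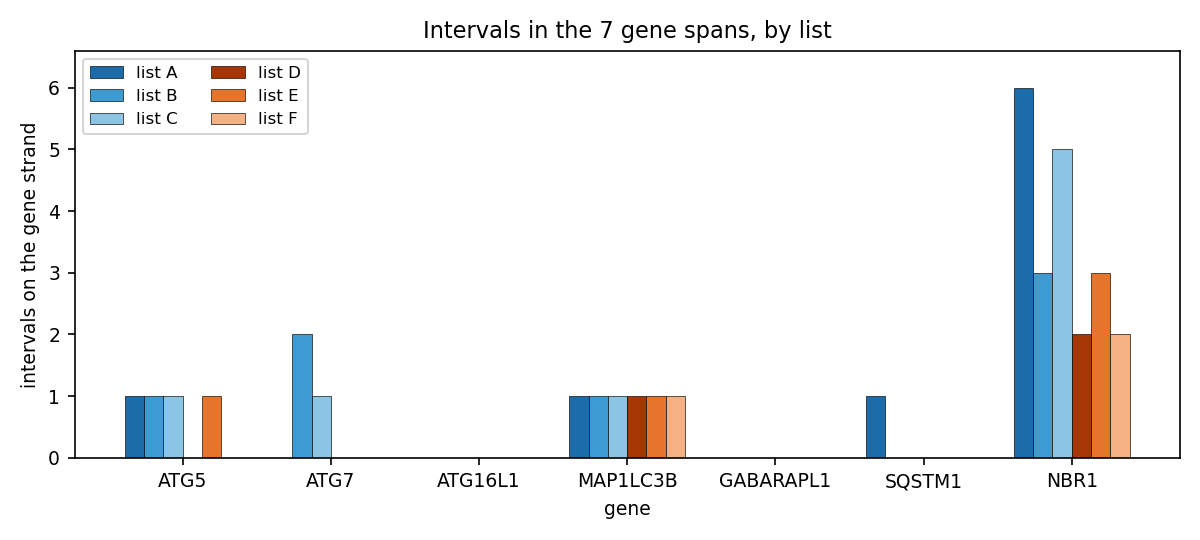
Number of intervals (y axis) on the strand of each of the 7 genes (x axis) in lists A to F (bars, 1 count per list). NBR1 has 2 to 6 intervals in every list, MAP1LC3B has 1 in every list, and ATG16L1 and GABARAPL1 have none.

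Of the 12 regions, 2 (16.7%) were held by all 6 lists, beside 1722 of 20742 (8.30%) over all regions of the lists, in genes or not. A further 3 regions occurred in 1 list, beside 36.9% over all regions. With 12 regions these shares are a description of the members only. All of A, B and C held 3 of the regions (ATG5, MAP1LC3B and region 4 of NBR1), beside 34.9% of all regions. All of D, E and F held 2 (MAP1LC3B and region 4 of NBR1), beside 9.68% of all regions. None of D, E and F held 5 regions (both of ATG7, that of SQSTM1, and regions 2 and 7 of NBR1), beside 61.6% of all regions. No member region lay in D, E or F alone, beside 4.81% of all regions. Leaving out any 1 list kept the number of regions held by every remaining list at 2. That value was fixed beforehand, because no member region was held by exactly 5 lists. The number held by all 6 lists was 1 when a minimum score equal to the median over all lists was required. It was 0 when each list was cut to its 4530 best-scored intervals, the length of the shortest. At that length list B kept no member interval, so no region could be held by all 6.

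Among the ubiquitin-like proteins, MAP1LC3B (LC3B, the form most used to count autophagosomes) carried its interval at the very start of the gene. Positions from here on are hg19. The span lies on chromosome 16 (plus strand, 87425801 to 87438380), and the region covered 87425801 to 87426073, the first 273 of its 12580 bases. All 6 intervals ended at the same base. They began at base 28 of the span in A, C and E, at base 27 in B and at base 1 in D and F. The widths were accordingly 246 bp, 247 bp and 273 bp, and the shortest and longest differed by 27 bp. No other interval lay on that strand between this region and the far end of the gene in any list.

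The deposited score, 1 value per interval on a scale not given in the sources used here, ranks intervals within a list. For MAP1LC3B list A gave 327.96, B 384.93, C 367.91, D 599.81, E 661.41 and F 739.51. As a percentile of all scores in the same list, where 50 is the list's median, these were 59.0, 50.8, 51.5, 82.9, 85.4 and 89.7 in the same order. The interval thus lay above the median of its list in 6 of 6 lists, only just so in B and C. The score may depend on depth, so these scores say nothing of relative peak strength across lists.

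GABARAPL1, which encodes a protein of the same family, lies on chromosome 12 (plus strand, 10365489 to 10375722). It had no interval on either strand in any list. The nearest interval on its strand was 948 kb away in the closest case, list B, and 3187 kb away in the farthest, list D. GABARAPL1 thus shared none of the MAP1LC3B pattern in these lists.

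Among the conjugation genes, ATG5 had a single region, close to its 3′ end. Its span lies on chromosome 6 (minus strand, 106632352 to 106773695), and the region covered 106633746 to 106634551. Counted along the transcribed strand, this was base 139145 to base 139950 of 141344, leaving 1394 bases to the end of the gene. All 4 intervals shared their 5′ side, and their 3′ sides differed by up to 49 bp. The interval of A was 801 bp wide, that of B 757 bp, that of C 806 bp and that of E 762 bp.

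The ATG5 scores were 373.36 in A, 378.00 in B, 342.42 in C and 73.76 in E. Within their lists these stood at percentiles 62.7, 50.3, 49.7 and 3.49, so that the interval of E was among the lowest-scored of its list. The lowest score of a list was between 70 and 70.08, and the interval of E lay just above that limit. D and F listed none.

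ATG7 spans 285130 bases of the plus strand of chromosome 3, from 11314010 to 11599139, the longest of the 7 spans. Its first region covered 11314109 to 11314298, base 100 to base 289 of the gene, and was held by B and C. Both intervals began at the same base and their ends differed by 6 bp. They scored 107.90 in B and 85.04 in C, at percentiles 15.4 and 6.82. The second region, 11323879 to 11324124, was held by B with a score of 83.31 (percentile 6.40). All ATG7 intervals therefore stood low in their lists.

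ATG16L1, on chromosome 2 (plus strand, 234160217 to 234204320), had no interval on either strand in any list. The nearest interval on its strand was 476 kb upstream in every list but E, at identical distance, and 174 kb downstream in E. Of the 3 conjugation genes, ATG5 was thus the one with an interval in more than 2 lists.

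**Figure D2:**
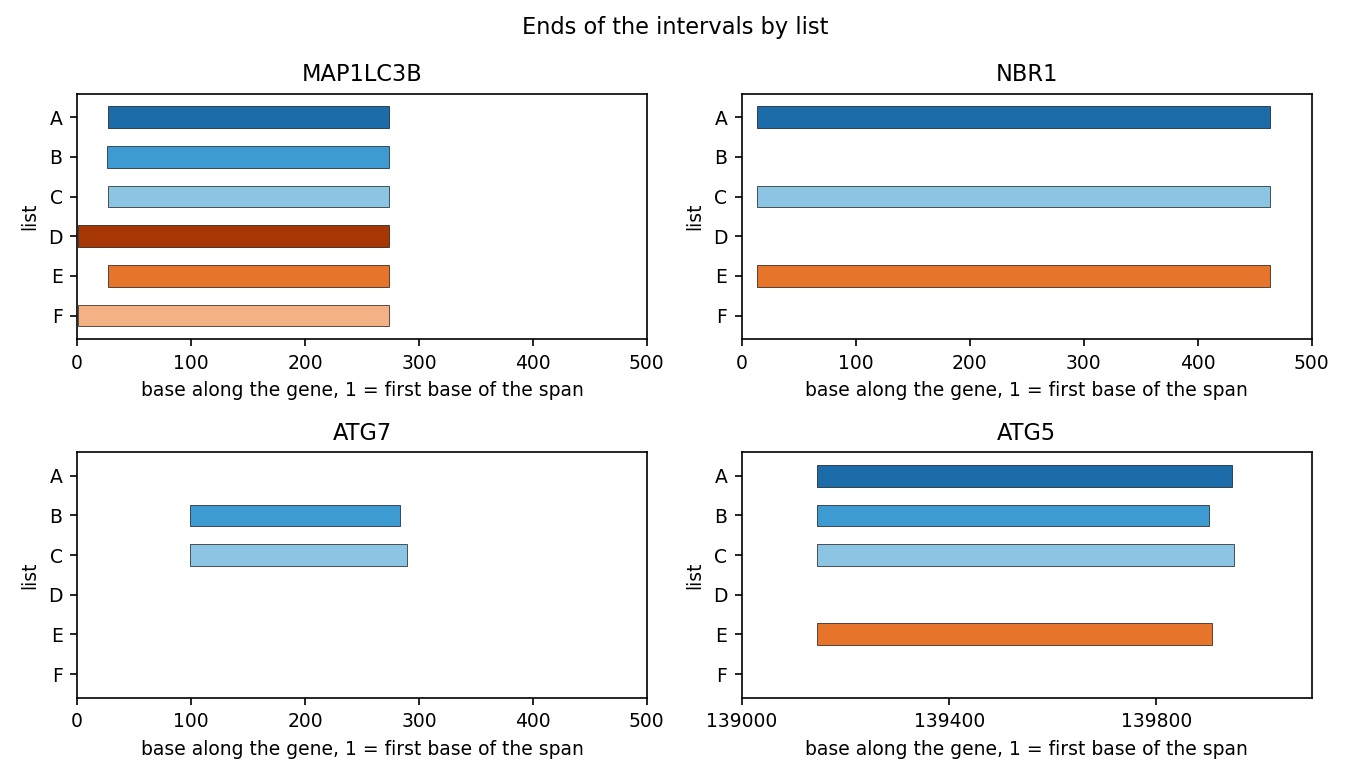
Extent of the start-proximal regions of MAP1LC3B, NBR1 and ATG7 and of the 3′ region of ATG5 in each list (rows A to F), in bases along the transcribed strand from the first base of the span (x axis). Bars are single intervals to scale. MAP1LC3B bars share their right end at base 273, NBR1 bars are identical, and ATG5 bars share their left end at base 139145.

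Of the receptors, SQSTM1 (p62) had a single interval over the 6 lists. The gene lies on chromosome 5 (plus strand, 179233388 to 179265077). The interval, in list A, covered 179247842 to 179248141, base 14455 to base 14754 of a span of 31690. It was 300 bp wide and scored 249.88, at percentile 51.1, near the median of that list. Lists B to F had no interval on this strand of the gene.

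NBR1, on chromosome 17 (plus strand, 41322498 to 41363708), held 7 of the 12 regions. They are numbered here along the gene. Regions 1 to 3 lay in the first 8932 bases: 41322511 to 41322960, 41329953 to 41330020 and 41331411 to 41331429. Regions 4 to 7 lay together between base 29687 and base 33306: 41352184 to 41352625, 41353703 to 41353797, 41354672 to 41354729 and 41355698 to 41355803. The widths were 450, 68, 19, 442, 95, 58 and 106 bp in that order. No interval lay in the last 7905 bases of the gene.

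Every NBR1 region found in more than 1 list had exactly the same first and last base in each of them. Over the 12 regions, 9 were held by 2 or more lists, and both ends were equal throughout in 6 (66.7%), all of NBR1. The other 3, those of ATG5, ATG7 and MAP1LC3B, had 1 end equal throughout. Over the whole lists, 7510 of 12881 such regions with 1 interval per list (58.3%) had both ends equal. Exons of the hg19 build were not analysed here, so the ends were not set against exon boundaries.

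Region 4 of NBR1, 442 bp wide, was the one held by all 6 lists. Its score was 741.52 for A, 202.37 for B, 384.61 for C, 142.14 for D, 86.92 for E and 110.05 for F. The percentiles were 78.4, 34.2, 52.5, 37.4, 14.1 and 28.9, above the list's median in A and C and below it in the other 4. A stood highest and E lowest by either value.

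Region 1, which began at base 14 of the gene, scored 575.55 in A, 957.53 in C and 75.45 in E. Region 3, of 19 bp, scored 603.19 in A, 900.25 in C and 90.80 in D. In A and C both regions stood at percentiles 70.8 to 74.1, and in E and D they stood at 5.21 and 14.8. Region 2 was held by A (154.44) and C (84.61). List B, the longest of the 6, held none of these 3 regions, although the highest score of any member, 957.53, fell in one of them.

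Regions 5 to 7 were narrow and, outside C, stood below the median of their list. Region 5 scored 137.06 in A, 73.05 in B and 79.86 in F. Region 6 scored 253.16 in B, 359.87 in C and 109.36 in E, and in C it stood at percentile 50.9. Region 7 occurred in A, with a score of 193.63 (percentile 42.3). The combination of lists differed from region to region along NBR1, and did not follow the length of the lists.

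**Figure D3:**
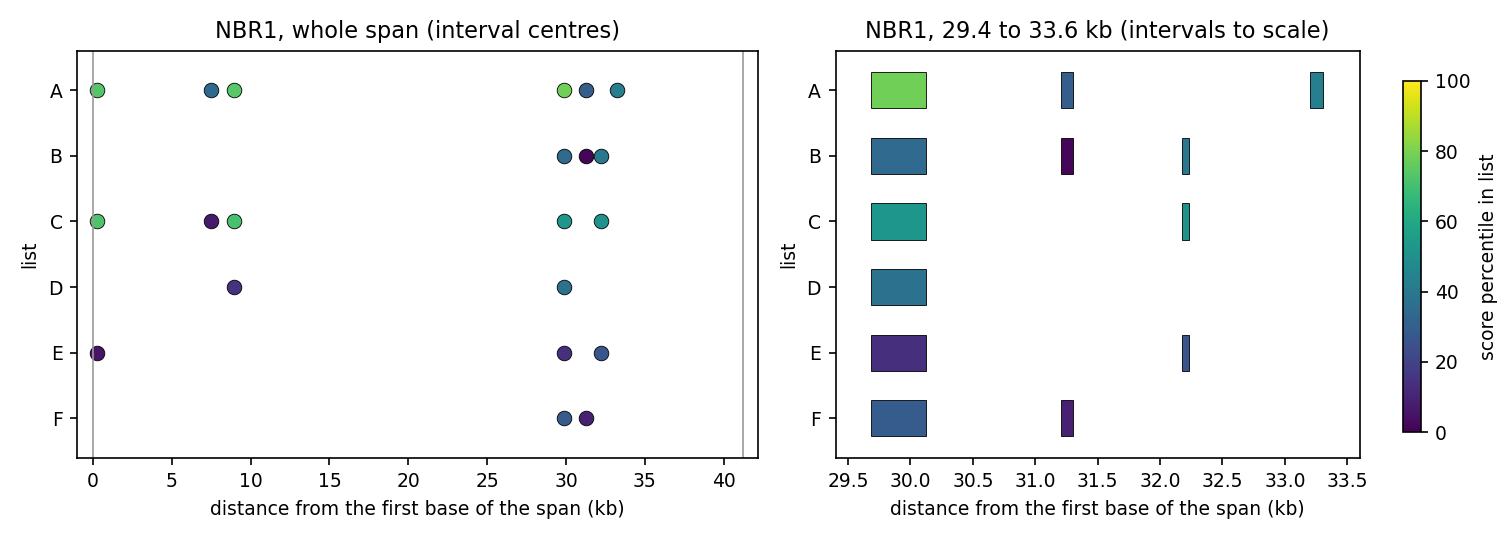
NBR1 intervals in each list (rows A to F) by distance from the first base of the span in kb. Left, centres of all intervals over the whole span (grey lines mark its ends); right, intervals of regions 4 to 7 to scale; colour gives the score percentile in the list. Region 4 is present in all 6 rows and regions 1 to 3 are absent from B.

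MAP1LC3B and region 4 of NBR1, the regions present throughout, ranked differently against each other within the lists. The MAP1LC3B percentile minus that of NBR1 region 4 was -19.4 points in A, 16.6 in B and -1.08 in C. It was 45.5 points in D, 71.3 in E and 60.8 in F. MAP1LC3B thus stood above region 4 in B, D, E and F and below it in A and C, and the margin was widest in D, E and F. Both values of a difference come from the same list, but list length differs between lists and the arm of each list is not settled, so no test was made.

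When each gene was represented by its best-scored interval in a list, MAP1LC3B led in 4 lists (B, D, E and F) and NBR1 in 2 (region 4 in A and region 1 in C). Among genes ranked this way, the second place went to ATG5 in A and B, to MAP1LC3B in C and to NBR1 in D, E and F. ATG5 and MAP1LC3B were close in B, at 378.00 and 384.93. ATG7 came last in both lists that held it.

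**Figure D4:**
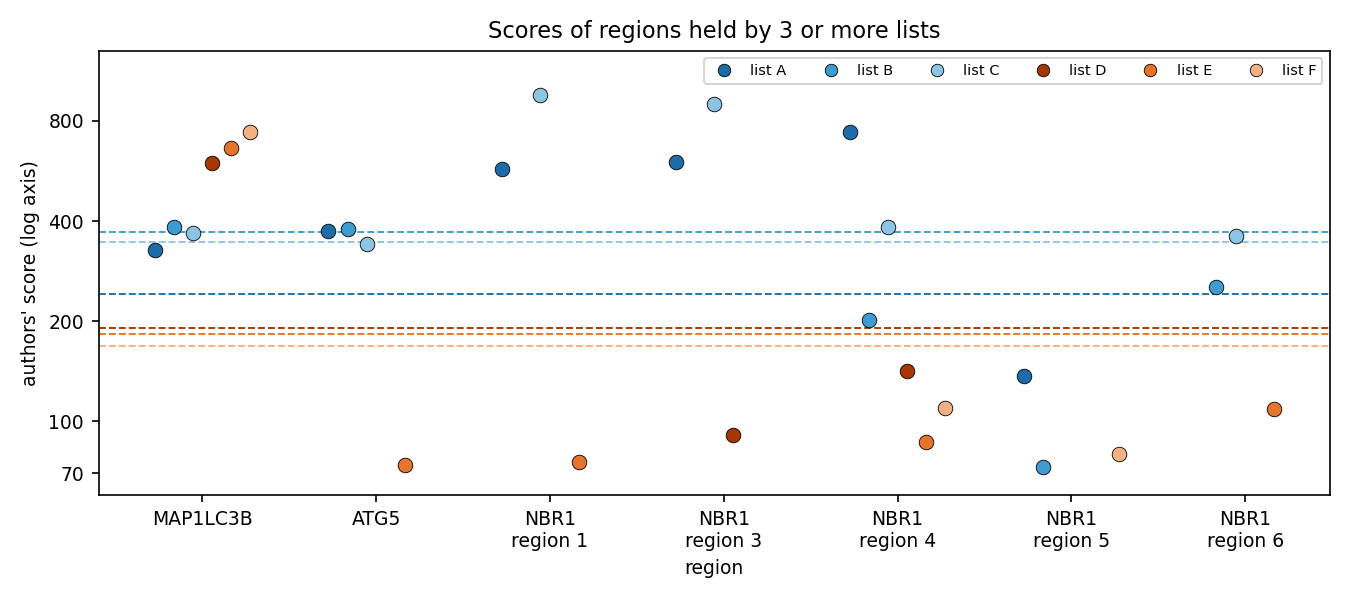
The authors' score (y axis, log scale) of the regions held by 3 or more lists (x axis), 1 point per list; dashed lines are the median scores of all intervals of each list in the same colour. MAP1LC3B lies above the list's own median in 6 of 6 lists, while NBR1 region 4 does so in A and C.

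Member intervals as a whole were narrower than the lists they came from and were spread over their scores. Their median width was 246 bp, beside 594 bp over all intervals. Intervals under 60 bp made up 6 of 35 (17.1%), all in NBR1 regions 3 and 6, beside 1.19% over all intervals. Of the 35, 16 scored above the median of their list, and the median score percentile was 42.3. Taken per list, this median was 59.0 for A, 34.2 for B, 51.2 for C, 37.4 for D, 14.1 for E and 28.9 for F. No member reached 3100, the value at which the highest scores pile up in the lists. The share of intervals at or above that value ranged from 1.10% (list F) to 11.8% (list B). With 35 members, its absence therefore says little about these genes.

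The other genes of the pathway, such as ATG3, ATG12, the ATG4 proteases, GABARAP, OPTN and CALCOCO2, were not analysed here, because gene positions on the hg19 build were at hand for the 7 genes alone.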

How the data were processed

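The labels describe MeRIP-seq of H460 cells in 12 samples; 6 peak lists of 6 columns were used. Per the submitters' processing notes, HISAT2 2.0.4 and the build hg19 were used. The peaks carry MACS-style names; the MACS version, its settings and the libraries that entered a list are not stated in what was used here. Column 5 of the authors' deposited lists is a score per interval of unstated scale, used to rank intervals within a list.

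Gene spans came from the rule that defines the members, and BED starts were made 1-based. An interval was a member when it shared at least 1 bp with the span on the gene's strand. Intervals of different lists sharing at least 1 bp on the same strand were joined into regions. Members, genes and settings were chosen with earlier results of these data known; all 7 genes are named. The named promoter windows and neighbouring genes are RefSeq entries of GRCh38.p14, matched by symbol (7 of 7 genes). No test was made, since no list could be assigned to a group; no value column was left unused (0). Software was pandas 2.3.3, scipy 1.17.1, numpy 2.4.6 and matplotlib 3.10.9 under Python 3.11.15. The overlap code, tested on simulated lists of 2000 intervals, recovered 6 of 6 known values, and member counts equalled those of bedtools 2.31.1 in 6 of 6 lists. The closing section gives the alternatives tried.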

Additional observations from a re-analysis of the deposited data

How the results depend on the processing

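No paired analysis was possible because no list could be assigned to a group and no result comes from a test. Of 87 values computed under alternatives, 66 stayed within their limit and 21 moved. The 66 include values that could not move, so this tally does not measure robustness. A count of 0 for ATG16L1 or GABARAPL1 could not change under settings that only remove intervals. Capping scores at 3100 could not change the median percentile, because the highest member score was 957.53. The limit was 1.5 times for counts and lengths, and the 95% binomial interval of the median for the score percentile. That interval treats the 35 member intervals as independent although they fall in 12 regions, so it served as a limit only and not as a measure of spread. A minimum score equal to the median over all lists (260) left 16 member intervals over 5775 bp in 6 regions, of which 1 was held by all 6 lists, with a median score percentile of 66.7; NBR1 kept 7 intervals, and ATG7 and SQSTM1 had 0. With each list at the length of the shortest (4530 intervals), 17 intervals over 5683 bp in 7 regions were left, 0 of them in all 6 lists, with a median percentile of 62.7; ATG5 had 2 intervals, MAP1LC3B 3, NBR1 12, and ATG7 and SQSTM1 0. That setting left lists A, B and C with intervals scoring at least 369, 916 and 615, and so dropped MAP1LC3B from them. List B kept no member at all. Ignoring strand brought the covered length from 10337 bp to 16658 bp, ATG7 to 5 intervals and SQSTM1 to 3. ATG16L1 and GABARAPL1 had 0 under every alternative run. Of these, ignoring strand and widening the spans by 1 kb at each end could have added intervals. Leaving out each list in turn gave 10 to 12 regions and 2 in all remaining lists. The value of 2 was fixed beforehand, because no member region was held by exactly 5 lists. Depth is unknown, so intervals absent from a list may lie below its lowest score.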

Other observations

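On the strand opposite to the genes, 4 intervals overlapped the spans. At the 3′ end of ATG7, list E held 11597585 to 11600301 of chromosome 3 (2717 bp, score 122.53) and list F held 11597630 to 11600301 (2672 bp, 168.79). Both ran 1162 bp past the end of the span. In RefSeq's GRCh38 annotation, VGLL4, a minus-strand gene encoding a transcriptional cofactor, overlaps ATG7. At the 5′ end of SQSTM1, lists A and F held the same 466 bp interval, 179233487 to 179233952 of chromosome 5, scoring 102.49 and 70.79. MGAT4B and MRNIP, both on the minus strand, overlap SQSTM1 in that annotation.

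Peaks are numbered along the chromosomes, and most numbers are missing from the lists. The highest numbers of lists A to F were 112236, 147164, 87583, 432460, 644965 and 429506. The lists held 4530 (E) to 14908 (B) intervals. Between the listed intervals flanking GABARAPL1, 63 to 76 numbers were skipped for A to C and 357 to 717 for D to F. For ATG16L1 the ranges were 21 to 55 and 163 to 405. Genes with intervals showed the split as well: 6 to 22 and 229 to 429 for ATG5, and 22 to 61 and 199 to 512 for ATG7. For MAP1LC3B, which had an interval in every list, they were 3 to 8 and 125 to 531. SQSTM1 (6 to 14 over all lists) and NBR1 (27 to 52) showed no such split. What the missing numbers stood for was not analysed here. Between the first and last NBR1 interval, 1 number was missing in A, 2 in C and 3 in E, and 0 in B, D and F.

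Downstream of MAP1LC3B the closest interval on the opposite strand was 1.47 kb from the end of the span, in list C.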
